A study of Mus musculus with 10 samples.

Results

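Genes of the interferon response and of antigen presentation on MHC class I were described across 4 groups of irradiated mouse embryonic fibroblasts (MEFs). The set was a list of 43 gene symbols. Each was read through the probeset that carries that symbol alone and, where there were several, the one with the highest mean over the 10 arrays. This gave values for 37 of the 43 genes, out of 19938 genes with a probeset of their own. Isg15, Gbp2, Igtp, H2-K1 and H2-D1 lie on probesets that carry several symbols, and Ifi44 has no probeset under its symbol, so these 6 genes have no value here.

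The MEFs were wild type, were irradiated with 1000 rad so that they no longer divided, and were harvested on day 9. MEFs + DMSO (3 arrays) received the solvent, and MEFs + nilotinib (3 arrays) received 16 nM of this inhibitor of the Abl kinase. MEFs + ALL + nilotinib (3 arrays) and MEFs + ALL + DMSO (1 array) were given the same agents below a Transwell membrane with 0.4 µM pores that carried 8093 cells, a line of acute lymphoblastic leukemia (ALL) cells of the B lineage from a Bcr/Abl transgenic mouse. The labels name no membrane for MEFs + DMSO and MEFs + nilotinib. Between groups with and without ALL cells, the cells and the membrane therefore cannot be told apart. Every dish, controls included, had medium with murine IL-3. The replicates were separate dishes of plated MEFs, so the spread between them is that between dishes, and no source used here names the strain of the MEFs. By the methods, further MEFs + ALL + DMSO dishes were left out because they held contaminating ALL cells. The comparisons ask what leukemia cells under drug treatment do to the stromal cells that support them.

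Interferons are secreted proteins that signal through JAK kinases to STAT and IRF transcription factors, which switch on a large set of antiviral genes in most cell types, fibroblasts among them. Type I interferon acts mainly at interferon-stimulated response elements, through a complex that holds STAT2 and IRF9. Interferon gamma acts mainly at gamma-activated sites, and induces IRF1 and with it the immunoproteasome subunits and the peptide transporter that load MHC class I molecules. Lymphoid cells, B cells among them, express much of this presentation machinery at rest.

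The lone MEFs + ALL + DMSO array stood apart. On the first principal component of all probesets it lay at -66.9, and the other 9 arrays lay between -9.13 and 22.6. Of 26 marker genes of B-lineage cells and leukocytes with a value, 23 were called higher in it than in MEFs + DMSO, and the median difference was 2.13 on the log2 scale. Their summed anti-logged signal was 21327 there and between 5880 and 7182 on the other arrays. In the lone array 3 of the 26 markers lay below the level of silent genes, taken as the 95th percentile of olfactory receptor probesets (log2 signal 6.33), and 14 or 15 of the 26 did so in each of the other groups. All 12 fibroblast markers were above that level in every group, with a sum of 51794 in the lone array and 54293 to 62427 elsewhere. They did not move together. Their log2 differences in the lone array over MEFs + DMSO ran from -0.72 to 0.65, 3 above and 9 below 0, with a median of -0.16. Of the other arrays, MEFs + ALL + nilotinib replicate 2 stood apart on the second component, at 50.0. In RNA from whole dishes, fewer cells of a type and less RNA per cell cannot be told apart. The part of B-lineage RNA in any difference of the lone array reported here was not tested.

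**Figure D1:**
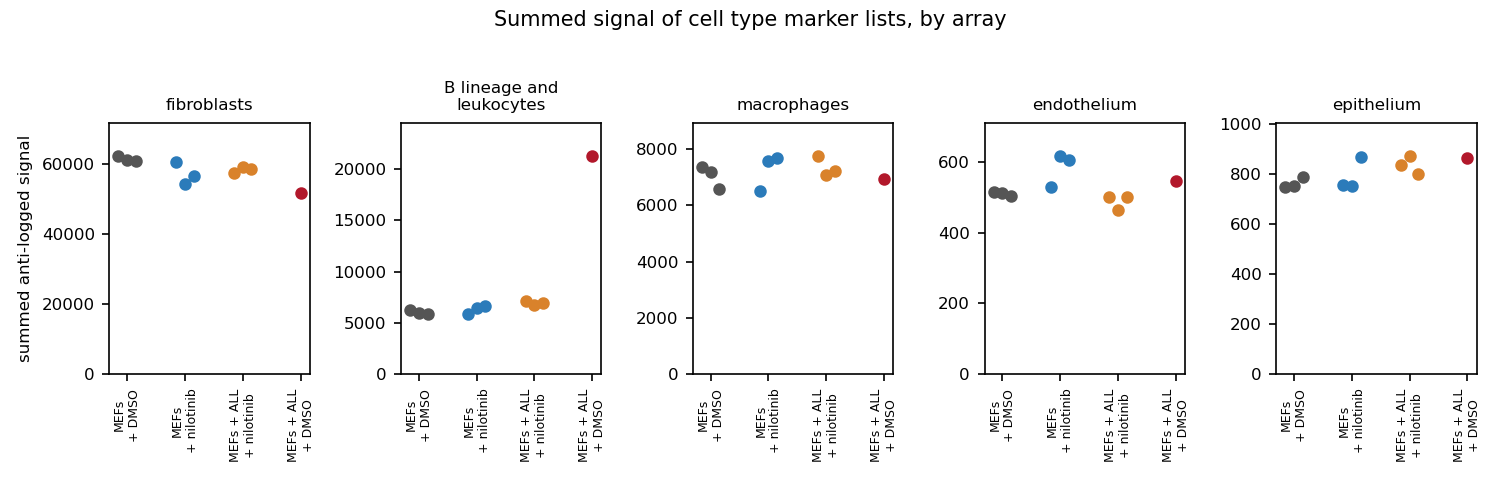
Summed anti-logged signal of 5 marker lists (y axis, linear, from 0) for each of the 10 arrays, by group on the x axis; each point is an array. The B-lineage and leukocyte sum was 21327 in the MEFs + ALL + DMSO array and at most 7182 on the other 9 arrays.

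The main replicated comparison was MEFs + ALL + nilotinib over MEFs + DMSO. None of the 37 genes was called at an adjusted p below 0.05 (limma over all 10 arrays, Benjamini-Hochberg over 35557 probesets), where 0.627% of all probesets were called. At an unadjusted p below 0.05 there were 9 of the 37 (24.3%), all higher, against 16.2% of all probesets. The count was 3 when MEFs + DMSO replicate 3 was left out and 4 when MEFs + ALL + nilotinib replicate 1 was. The smallest adjusted p was 0.118, for Irf1, of which a further probeset had a log2 difference of 0.05. The median log2 difference of the genes was 0.10, with 22 above and 15 below 0, and that of all probesets was -0.004. The single differences ran from -0.30 for Ddx58 to 0.47 for Ifit3. The arrays of both groups did not overlap for 12 of the 37 genes (32.4%), 10 of them higher, against 24.7% of all probesets in either direction. Without MEFs + DMSO replicate 3 the median was 0.03, and without MEFs + ALL + nilotinib replicate 2 it was 0.18. The summed B-lineage and leukocyte signal was 6706 to 7182 in MEFs + ALL + nilotinib. It was 5880 to 6240 in MEFs + DMSO and 5888 to 6638 in MEFs + nilotinib, which had no ALL cells. In this comparison 7 of the 26 markers lay above and 19 below 0, with a median log2 difference of -0.07. Of them 1 was called, Arhgdib (log2 0.74). The part of B-lineage RNA in these differences was not tested.

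**Figure D2:**
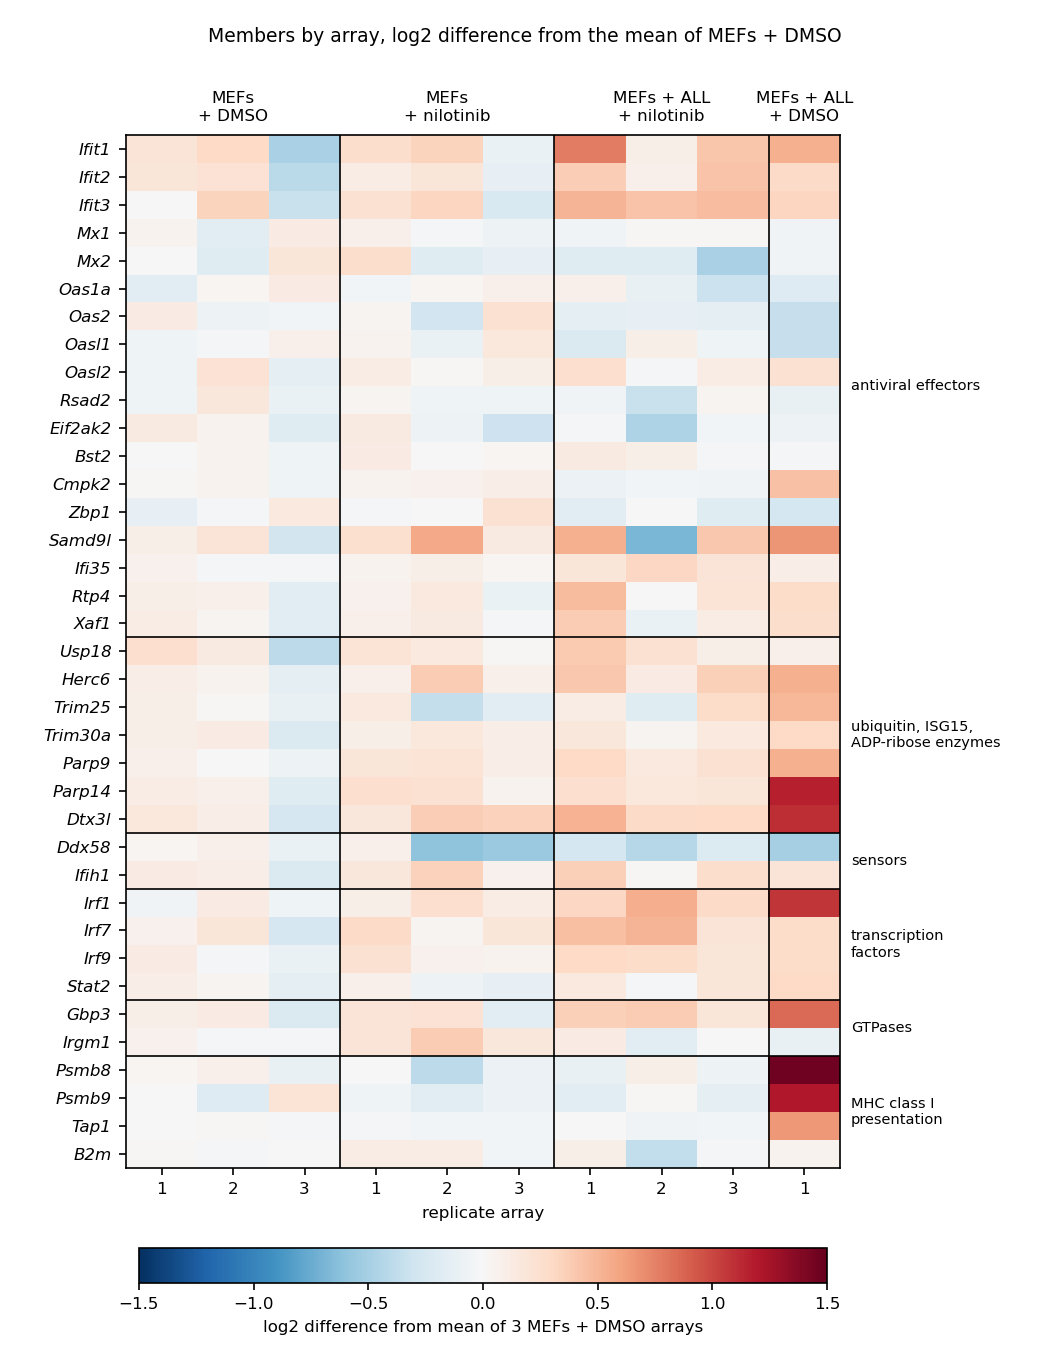
Difference of each array from the mean of the 3 MEFs + DMSO arrays (log2, colour) for the 37 genes with a value (rows, by role) on the 10 arrays (columns, by group and replicate number). The strongest colours are in the lone MEFs + ALL + DMSO array, where the differences reach 1.45 for Psmb8, and MEFs + DMSO replicate 3 is pale blue for most interferon-induced genes.

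The 4 transcription factors all lay above 0 in this comparison, without a call. Irf7, which amplifies type I interferon production, had log2 signals of 7.74, 7.86 and 7.43 in MEFs + DMSO, 7.96, 7.72 and 7.85 in MEFs + nilotinib, 8.13, 8.19 and 7.87 in MEFs + ALL + nilotinib, and 7.95 in the lone array. All MEFs + ALL + nilotinib arrays lay above all MEFs + DMSO arrays, and 1 of them lay within the range of MEFs + nilotinib. The log2 difference over MEFs + DMSO was 0.39 ± 0.13 (SE) and the limma adjusted p was 0.21. Irf9, the DNA-binding partner of Stat2, differed by 0.25 with an adjusted p of 0.20, and Stat2 by 0.10 with an adjusted p of 0.64.

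The antiviral effectors showed no common direction. Of the 18 with a value, 9 lay above and 9 below 0 in MEFs + ALL + nilotinib over MEFs + DMSO, with a median log2 difference of 0.03. Ifit3, an RNA-binding antiviral protein, had signals of 7.03, 7.37 and 6.70 in MEFs + DMSO, 7.26, 7.35 and 6.81 in MEFs + nilotinib, 7.54, 7.47 and 7.50 in MEFs + ALL + nilotinib and 7.35 in the lone array. The MEFs + ALL + nilotinib arrays were above each array of the other groups, and the log2 difference over MEFs + DMSO was 0.47 ± 0.18 (SE; limma adjusted p = 0.27). Ifit1, which binds RNA lacking the host cap modification, had signals of 7.37, 7.47 and 6.69 in MEFs + DMSO, 7.44, 7.51 and 7.08 in MEFs + nilotinib, 7.95, 7.26 and 7.60 in MEFs + ALL + nilotinib and 7.71 in the lone array. For Ifit1 the groups overlapped, the difference was 0.43 ± 0.24 (SE) and the adjusted p was 0.42. Mx1, Mx2, Cmpk2 and Zbp1 had mean log2 signals of 4.18, 5.15, 5.94 and 6.22, below the level of silent genes, so their values say little of expression.

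The spread among dishes often came from 1 array of a group. In MEFs + DMSO, replicate 3 had the lowest value of its group for 28 of the 37 genes (75.7%), against 40.5% of all probesets, and the median SD of the genes was 0.14, against 0.09 for all probesets. Ifit1 had the largest SD there, 0.42. In MEFs + ALL + nilotinib, replicate 2 was lowest for 21 of the 37 (56.8%), against 36.1% of all probesets. Samd9l, an antiviral factor that represses translation, gave 8.31, 7.08 and 8.17 in that group, an SD of 0.67. B2m, the light chain of MHC class I, gave 12.6, 12.1 and 12.5 in the same dishes. Samd9l stood at 7.86, 7.97 and 7.49 in MEFs + DMSO, 8.01, 8.35 and 7.91 in MEFs + nilotinib and 8.43 in the lone array. MEFs + ALL + nilotinib replicate 2 was also the highest of its group for 11 of the 37 genes, against 45.7% of all probesets. Any relation of its values to its place on the second principal component was not tested.

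**Figure D3:**
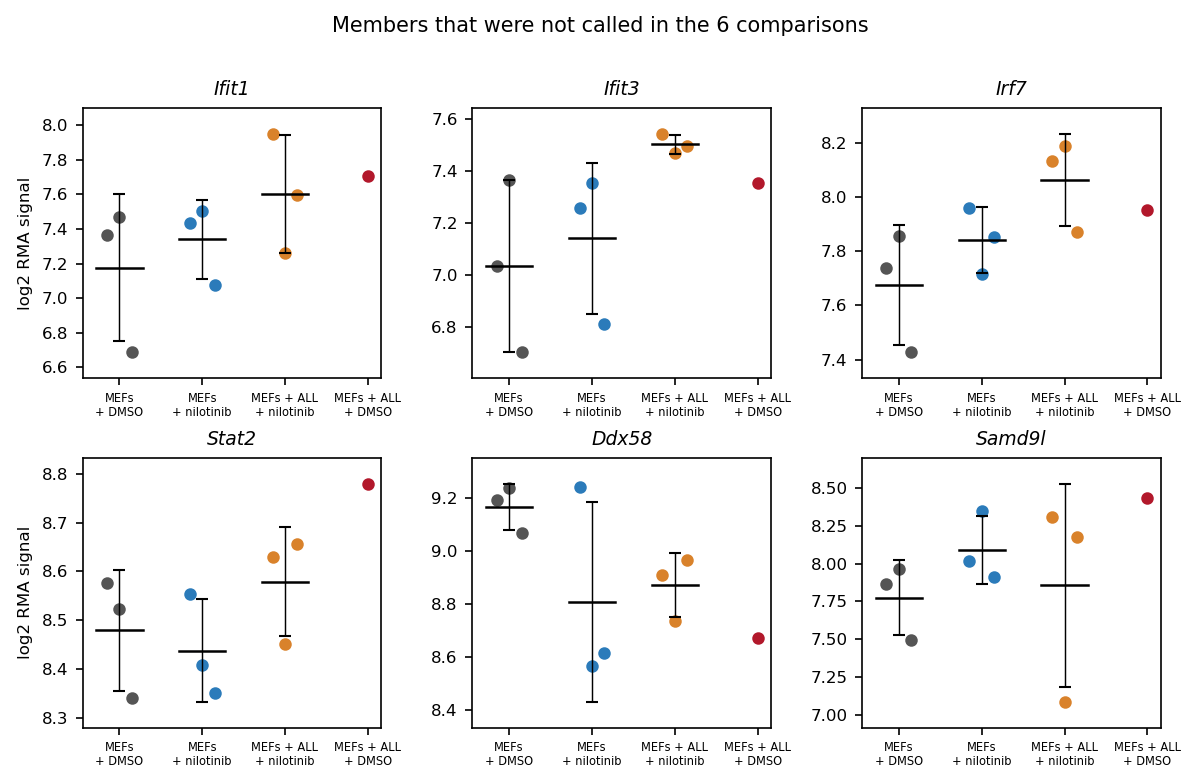
Log2 RMA signal (y axis, a separate range for each panel) of 6 genes by group, where points are arrays, the horizontal lines are group means and the error bars are SD (n = 3). Samd9l has a low value of 7.08 in MEFs + ALL + nilotinib replicate 2, and Ddx58 in MEFs + nilotinib runs from 8.56 to 9.24.

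Nilotinib alone gave no call. In MEFs + nilotinib over MEFs + DMSO, 0 of the 37 genes were called, and 0% of all probesets were. At an unadjusted p below 0.05 there were 3 of the 37 (8.11%) and 3985 of all probesets (11.2%). The median log2 difference of the genes was 0.06, beside 0.00 for all probesets, and the smallest adjusted p was 0.40, for Irgm1. The median was 0.02 without MEFs + DMSO replicate 3 and 0.10 without MEFs + nilotinib replicate 3. Irgm1, an immunity-related GTPase that acts on autophagy and phagosomes, had signals of 10.5, 10.4 and 10.4 in MEFs + DMSO and 10.6, 10.8 and 10.6 in MEFs + nilotinib, with a log2 difference of 0.25 ± 0.09 (SE). The arrays of MEFs + nilotinib and MEFs + DMSO did not overlap for 4 of the 37 (10.8%), against 20.6% of all probesets.

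Ddx58 (RIG-I), a cytosolic sensor of viral RNA, ran the other way. Its signals were 9.19, 9.24 and 9.07 in MEFs + DMSO, 9.24, 8.56 and 8.62 in MEFs + nilotinib, 8.91, 8.74 and 8.97 in MEFs + ALL + nilotinib and 8.67 in the lone array. MEFs + nilotinib replicate 1 lay with the MEFs + DMSO arrays, and the other arrays outside MEFs + DMSO lay below them. The log2 differences from MEFs + DMSO were -0.36 for MEFs + nilotinib (limma adjusted p = 0.47), -0.30 for MEFs + ALL + nilotinib (0.43) and -0.50 for the lone array (0.22). MEFs + nilotinib replicate 1 is on neither side of the lone-array comparison. Leaving it out kept that difference at -0.50 and changed only the estimate of the spread. Ifih1 (MDA5), the related sensor, had log2 differences of 0.19, 0.21 and 0.19 in these 3 comparisons, with no call.

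MEFs + ALL + nilotinib over MEFs + nilotinib had 0 of 37 called, against 0.186% of all probesets, and 4 of 37 (10.8%) at an unadjusted p below 0.05, against 9.27% of all probesets. The median log2 difference was 0.04, beside -0.007 for all probesets. Arrays did not overlap for 5 genes (13.5%), against 14.4% of all probesets. Without MEFs + ALL + nilotinib replicate 2 the median was 0.11.

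The calls came in the lone MEFs + ALL + DMSO array. Over MEFs + DMSO, 9 of the 37 genes (24.3%) were called higher and 0 lower, where 6.67% of all probesets were called higher and 3.59% lower. The median log2 difference of the 37 was 0.28, beside -0.07 for all probesets, and without MEFs + DMSO replicate 3 it was 0.15. The lone array was the highest of the 10 for 14 of the 37 genes, against 15.7% of all probesets, and the lowest for 3, against 25.2%. Shares over all probesets also count those below the level of silent genes. Of 35557 probesets 21814 lay above that level, and of the 37 genes 33 did, so these shares are not matched for signal. This comparison has 1 array on one side, which the fit assumes to vary like the replicated groups, and B-lineage markers were higher on the same array.

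**Figure D4:**
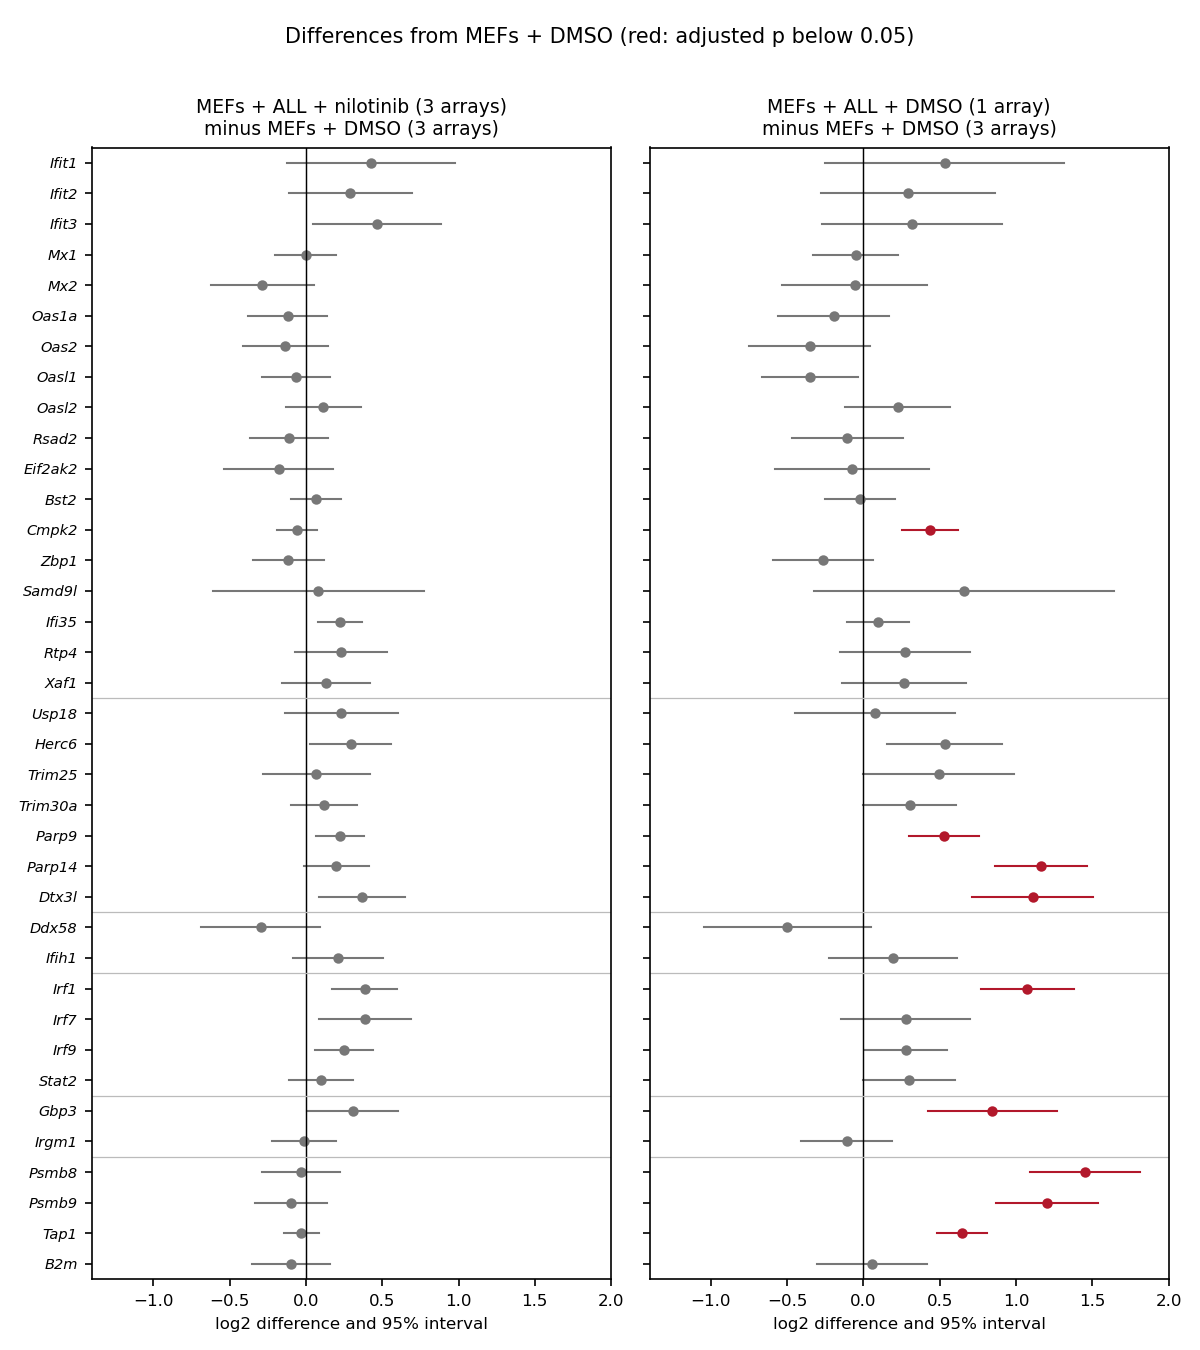
Log2 difference from MEFs + DMSO with its 95% interval (x axis) for the 37 genes with a value (y axis, by role), for MEFs + ALL + nilotinib (left) and for the lone MEFs + ALL + DMSO array (right); red marks an adjusted p below 0.05. On the left 0 genes are called, and on the right 9 are, from Cmpk2 at 0.43 to Psmb8 at 1.45.

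The largest differences among the called genes were those of Psmb8 and Psmb9, which act in antigen processing. Psmb8, a catalytic subunit of the immunoproteasome, had log2 signals of 6.41, 6.45 and 6.27 in MEFs + DMSO, 6.38, 5.98 and 6.29 in MEFs + nilotinib, 6.26, 6.47 and 6.30 in MEFs + ALL + nilotinib and 7.83 in the lone array. The 3 replicated groups overlapped, and the lone array was above them all. It was 2.74-fold higher than MEFs + DMSO (log2 1.45 ± 0.16 SE, limma adjusted p = 0.00065), although 5 of the 9 arrays of the replicated groups, 1 of them MEFs + DMSO, lay below the level of silent genes. Psmb9, another catalytic subunit of the immunoproteasome, had 7.81, 7.63 and 8.02 in MEFs + DMSO, 7.76, 7.66 and 7.73 in MEFs + nilotinib, 7.66, 7.83 and 7.67 in MEFs + ALL + nilotinib and 9.02 in the lone array. The lone array was again the only one apart, 2.31-fold higher than MEFs + DMSO (log2 1.21 ± 0.15 SE, adjusted p = 0.0013). Tap1, a chain of the transporter that carries peptides into the endoplasmic reticulum, had 8.64, 8.65 and 8.62 in MEFs + DMSO, 8.61, 8.59 and 8.59 in MEFs + nilotinib, 8.64, 8.59 and 8.60 in MEFs + ALL + nilotinib and 9.28 in the lone array. Tap1 varied little among dishes, and the log2 difference was 0.65 ± 0.07 (SE, adjusted p = 0.00079). B2m was not called, with 12.5 on each MEFs + DMSO array, 12.6 in the lone array and a log2 difference of 0.06 (95% interval -0.30 to 0.42).

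Of the 7 enzymes of ubiquitin, ISG15 and ADP-ribose, 3 were called higher in the lone array and 4 were not. Parp14, a mono-ADP-ribosyltransferase, had signals of 7.17, 7.13 and 6.87 in MEFs + DMSO, 7.31, 7.29 and 7.12 in MEFs + nilotinib, 7.31, 7.21 and 7.24 in MEFs + ALL + nilotinib and 8.22 in the lone array. Dtx3l, a ubiquitin ligase, had 7.23, 7.17 and 6.82, then 7.24, 7.44 and 7.42, then 7.59, 7.35 and 7.37 in the same order of groups, and 8.18 in the lone array. Both genes were over 2-fold higher in the lone array than in MEFs + DMSO, with log2 differences of 1.16 ± 0.13 for Parp14 and 1.11 ± 0.17 for Dtx3l (SE; limma adjusted p = 0.00084 and 0.0054). Parp9, which pairs with Dtx3l as a complex, had 8.01, 7.93 and 7.86 in MEFs + DMSO, 8.12, 8.14 and 8.03 in MEFs + nilotinib, 8.24, 8.08 and 8.16 in MEFs + ALL + nilotinib and 8.47 in the lone array. For Parp9 and Dtx3l the MEFs + nilotinib and the MEFs + ALL + nilotinib arrays also lay above all MEFs + DMSO arrays, without a call. The Parp9 difference in the lone array was 0.53 ± 0.10 (SE, adjusted p = 0.013). Herc6, which attaches ISG15 in the mouse, had a log2 difference of 0.53 with an adjusted p of 0.078. Usp18, which removes ISG15 and limits interferon signaling, had 0.08 with an adjusted p of 0.86.

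Irf1 was the called transcription factor. Its signals were 7.22, 7.40 and 7.20 in MEFs + DMSO, 7.36, 7.52 and 7.38 in MEFs + nilotinib, 7.59, 7.82 and 7.56 in MEFs + ALL + nilotinib and 8.35 in the lone array. On the probeset used here, all MEFs + ALL + nilotinib arrays lay above all arrays without ALL cells, and below the lone array. The lone array was 2.11-fold higher than MEFs + DMSO (log2 1.07 ± 0.13 SE, limma adjusted p = 0.0015). A further probeset with the Irf1 symbol gave 6.80 to 6.88 in MEFs + DMSO and 6.75 in the lone array, a log2 difference of -0.09 (adjusted p = 0.70), so both probesets disagree. The further probeset gave 6.77 to 7.09 in MEFs + ALL + nilotinib and 6.78 to 6.99 in MEFs + nilotinib, so the replicated groups overlapped. In MEFs + ALL + nilotinib its log2 difference was 0.05 over MEFs + DMSO and 0.14 over the lone array. The probeset used here gave 0.38 and -0.69. With the mean of both probesets, the log2 difference of the lone array over MEFs + DMSO was 0.49 and the call remained.

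Gbp3, a guanylate-binding GTPase that attacks the vacuoles of pathogens, had signals of 6.88, 6.92 and 6.57 in MEFs + DMSO, 6.99, 7.01 and 6.63 in MEFs + nilotinib, 7.15, 7.17 and 6.98 in MEFs + ALL + nilotinib and 7.64 in the lone array. Its difference in the lone array was 0.85 ± 0.19 on the log2 scale (SE, limma adjusted p = 0.025), and without MEFs + DMSO replicate 3 the adjusted p was 0.051. Cmpk2, a mitochondrial nucleotide kinase, had 5.91, 5.94 and 5.83 in MEFs + DMSO, 5.94, 5.96 and 5.99 in MEFs + nilotinib, 5.80, 5.86 and 5.85 in MEFs + ALL + nilotinib and 6.33 in the lone array. Its difference of 0.43 was called (adjusted p = 0.012), but every value is below the level of silent genes. Cmpk2 was the only antiviral effector of 18 that was called in this comparison.

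**Figure D5:**
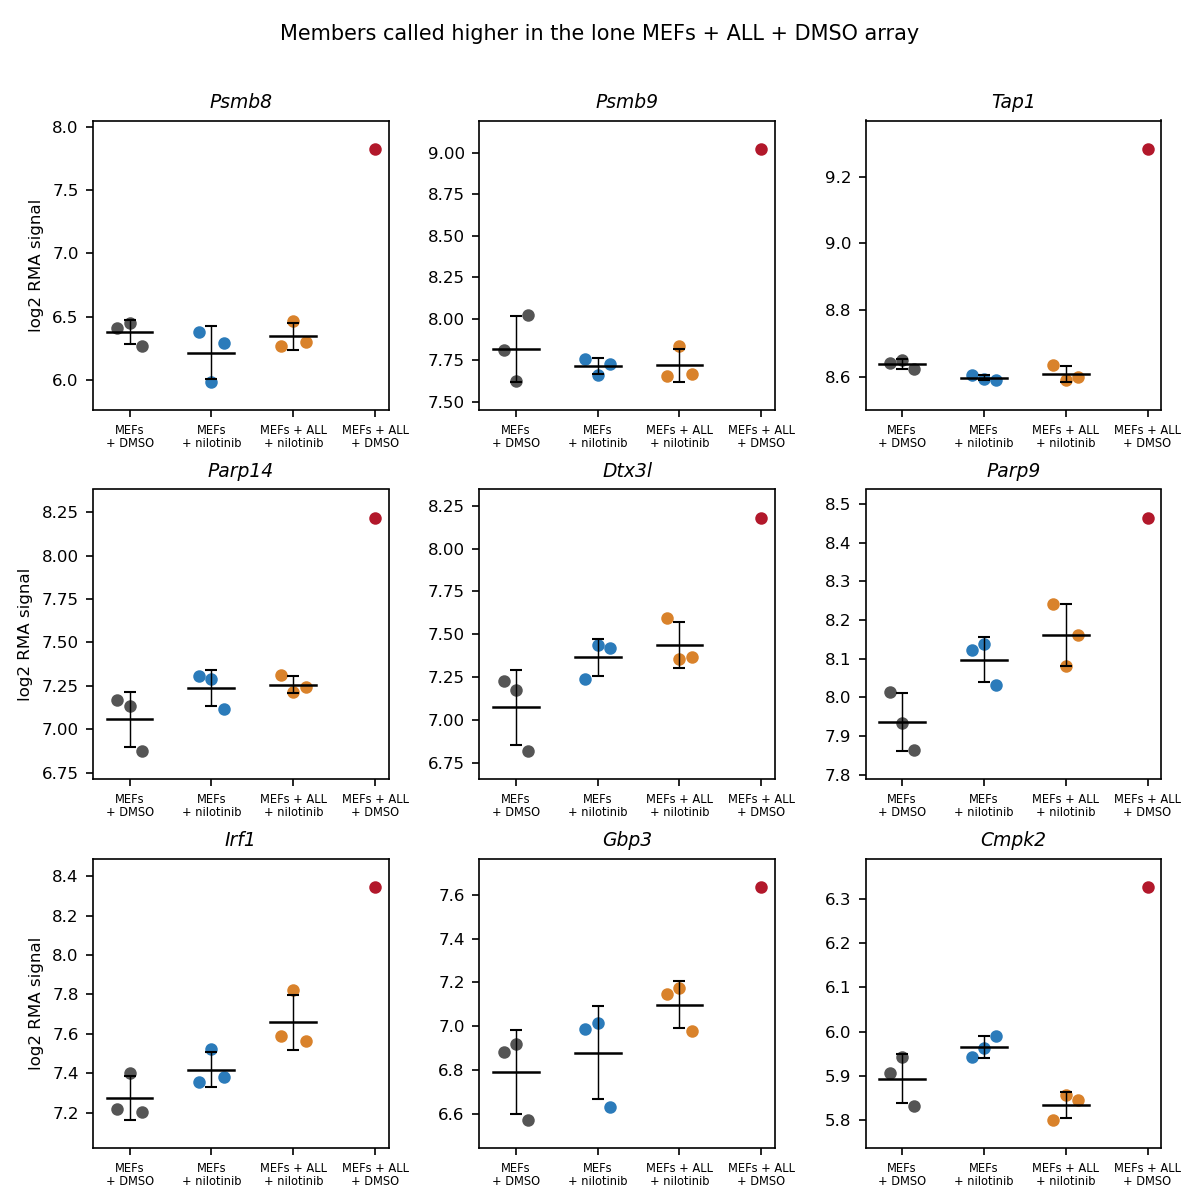
Log2 RMA signal (y axis, a separate range for each panel) of the 9 genes called higher in the lone MEFs + ALL + DMSO array, by group; points are arrays, the horizontal lines are group means and the error bars are SD (n = 3). The lone array lies above the other 9 arrays in every panel.

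The drug-treated co-cultures did not reach these values. In MEFs + ALL + nilotinib over MEFs + ALL + DMSO, 6 of the 37 genes were called lower (16.2%) and 0 higher, against 3.76% and 0.582% of all probesets. The median log2 difference of the 37 was -0.11, beside 0.07 for all probesets. It was -0.18 without MEFs + ALL + nilotinib replicate 1 and -0.02 without replicate 2 of that group. The log2 differences were -1.49 for Psmb8, -1.30 for Psmb9, -0.96 for Parp14, -0.69 for Irf1, -0.68 for Tap1 and -0.49 for Cmpk2. In the test of the difference itself, the effect of ALL cells under nilotinib minus that under DMSO, 7 of 37 genes were called lower (18.9%), against 3.55% lower and 0.399% higher over all probesets. These were Psmb8, Psmb9, Parp14, Dtx3l, Irf1, Tap1 and Cmpk2, and the median over the 37 was -0.17, beside 0.06 for all probesets, and -0.09 without MEFs + DMSO replicate 3. Both comparisons rest on the same lone array as the calls over MEFs + DMSO, so they are not separate evidence. In MEFs + ALL + nilotinib over MEFs + DMSO, with 3 arrays on each side, the differences of Psmb8, Psmb9, Tap1 and B2m were -0.03, -0.10, -0.03 and -0.10. That of Cmpk2 was -0.06. Other genes called in the lone array lay above 0 there, without a call. These were Irf1 (0.38, on the probeset used here), Dtx3l (0.37), Gbp3 (0.31), Parp9 (0.22) and Parp14 (0.20).

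By RefSeq gene order, 6 of the 9 called genes lie in 2 runs of neighbours. Psmb9, Tap1 and Psmb8 are adjacent on chromosome 17, in the MHC, and Parp14, Dtx3l and Parp9 are adjacent on chromosome 16. Psmb9 and Tap1 are transcribed in opposite directions and their RefSeq promoter windows (GRCm38.p6, 250 bases before to 50 after the start) share 275 of 300 bases, so the Tap1 window shows the promoter of both. Of the 43 genes, 35 have a window in the table, and 7 of the 9 called genes do. The windows of 5 genes are printed, those of Tap1, Psmb8, Irf1 and Gbp3 among the called genes and that of Ifit1 for comparison. Capitals mark the motifs found, which are the interferon-stimulated response element core GAAANNGAAA, the gamma-activated site TTCNNNGAA and a site of the NF-kB family, each searched on both strands.
Tap1: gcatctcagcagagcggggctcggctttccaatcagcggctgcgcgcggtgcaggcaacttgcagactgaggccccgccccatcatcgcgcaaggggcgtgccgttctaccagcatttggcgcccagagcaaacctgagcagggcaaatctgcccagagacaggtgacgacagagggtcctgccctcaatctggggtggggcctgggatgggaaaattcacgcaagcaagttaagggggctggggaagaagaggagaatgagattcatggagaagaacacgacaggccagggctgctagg
Psmb8: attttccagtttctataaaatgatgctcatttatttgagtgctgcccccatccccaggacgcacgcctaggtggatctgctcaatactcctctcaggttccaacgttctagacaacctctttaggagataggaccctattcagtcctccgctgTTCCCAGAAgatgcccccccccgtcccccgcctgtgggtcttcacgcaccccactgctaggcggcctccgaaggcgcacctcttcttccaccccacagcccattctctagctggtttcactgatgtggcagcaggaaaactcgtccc
Irf1: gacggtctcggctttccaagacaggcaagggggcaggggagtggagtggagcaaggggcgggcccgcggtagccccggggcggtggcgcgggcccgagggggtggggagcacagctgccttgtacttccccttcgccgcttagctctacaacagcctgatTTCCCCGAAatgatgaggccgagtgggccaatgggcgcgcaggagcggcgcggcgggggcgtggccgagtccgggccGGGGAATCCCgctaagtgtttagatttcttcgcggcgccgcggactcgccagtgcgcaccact
Gbp3: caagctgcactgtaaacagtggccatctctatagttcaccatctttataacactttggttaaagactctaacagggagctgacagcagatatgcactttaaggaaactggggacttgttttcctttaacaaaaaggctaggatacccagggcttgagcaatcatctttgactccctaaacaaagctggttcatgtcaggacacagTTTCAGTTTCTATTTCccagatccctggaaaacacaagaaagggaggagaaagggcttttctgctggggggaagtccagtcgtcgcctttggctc
Ifit1: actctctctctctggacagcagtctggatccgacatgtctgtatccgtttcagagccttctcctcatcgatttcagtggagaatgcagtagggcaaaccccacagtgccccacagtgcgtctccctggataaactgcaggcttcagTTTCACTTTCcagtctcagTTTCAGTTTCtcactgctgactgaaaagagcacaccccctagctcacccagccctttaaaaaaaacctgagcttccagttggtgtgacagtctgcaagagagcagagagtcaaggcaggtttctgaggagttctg
The windows lie at chr17:34187306-34187605 (plus strand) for Tap1, chr17:34197945-34198244 (plus strand) for Psmb8, chr11:53769764-53770063 (plus strand) for Irf1, chr3:142559794-142560093 (plus strand) for Gbp3 and chr19:34640639-34640938 (plus strand) for Ifit1. For Irf1 and Gbp3 a further window is listed, and it holds none of these motifs.

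The Tap1 window holds none of the motifs. That of Psmb8 holds a gamma-activated site, that of Irf1 a gamma-activated site and an NF-kB site that do not overlap, that of Gbp3 a pair of overlapping response element cores and that of Ifit1 a pair of separate cores. The response element core was in the windows of 16 of the 35 genes (45.7%) and of 3.99% of all 27025 genes in the table. Among called genes it was in 1 of 7, Gbp3, and among measured genes that were not called in 12 of 22, Ifit1, Ifit3, Oas1a and Rsad2 among them. The 7 count Psmb9 and Tap1 separately, although their windows are largely the same bases. The gamma-activated site was in 8 of the 35 (22.9%) and in 9.55% of all genes, among called genes in 2 of 7 and among measured genes that were not called in 5 of 22. The NF-kB site was in 6 of the 35 (17.1%) and in 5.14% of all genes, in 1 of 7 called genes, Irf1, and in 3 of 22 measured genes that were not called. A match is a description of the letters, and an absent match says only that they are not in this window.

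The rest of the pathway was read through 125 further genes in 7 lists. In MEFs + ALL + nilotinib over MEFs + DMSO none was called, 35 (28%) had an unadjusted p below 0.05, against 16.2% of all probesets, and the median log2 difference was 0.10. In MEFs + nilotinib over MEFs + DMSO and in MEFs + ALL + nilotinib over MEFs + nilotinib none was called either, with 12 (9.6%) and 14 (11.2%) at an unadjusted p below 0.05, against 11.2% and 9.27% of all probesets. In the lone array over MEFs + DMSO, 31 were called higher and 3 lower, with a median of 0.17. In that comparison 6.67% of all probesets were called higher and 3.59% lower. Among the 51 other interferon-induced genes, 14 were called higher, led by Ifitm1, a membrane protein that blocks viral entry (log2 3.17), Ifi203 (2.71), Gbp4 (2.28) and Gbp7 (2.02). Gbp4 and Gbp7 are relatives of Gbp3. Of the 17 other class I genes, 7 were called higher, with log2 differences of 1.83 for H2-Q4, a class I heavy chain, 1.29 for Erap1, which trims peptides, 0.97 for Psme1, a proteasome activator subunit, and 0.86 for Psmb10, a further immunoproteasome subunit. Of the 6 MHC class II genes, Cd74 (2.86), the invariant chain, and H2-Ab1 (2.07) were called higher, and the median of the 6 was 0.07. Class II genes are expressed by antigen-presenting cells such as B cells. B-lineage markers were higher on the same array, and the part of B-lineage RNA in these differences was not tested.

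Ligands, receptors, sensors and inhibitors of the pathway were also read in the lone array. Over MEFs + DMSO, 6.67% of all probesets were called higher in it and 3.59% lower. Of the 15 interferon ligands 0 were called higher and Ifnl2 was called lower (log2 -0.47). Among the 10 receptor and JAK-STAT genes, Ifngr1, the binding chain of the interferon gamma receptor, was called higher (0.76). Of the 18 other sensors, adaptors and IRFs, 4 were called higher, Tlr7 (1.44), an endosomal RNA sensor, Tmem173 (1.30), the adaptor STING, Irf8 (0.73) and Irf2 (0.61). Of the 8 feedback inhibitors, Cish (0.81), Rnf125 (0.79) and Socs3 (0.51) were called higher. The other genes called lower were Canx (-0.75), an endoplasmic reticulum chaperone, and Cxcl9 (-0.46), a chemokine, both named after their values were seen. In MEFs + ALL + nilotinib over MEFs + ALL + DMSO 23 of the 125 genes were called lower, against 3.76% of all probesets.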

How the data were processed

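RNA of irradiated MEFs was hybridized by the authors to Affymetrix mouse gene arrays. The log2 values that the authors deposited are described in a supplementary legend as RMA-normalized. Partek is named in the submitters' processing notes, with its version not given here. RMA pulls the signal distributions of the arrays together, so differences are relative to the other genes of an array. Array medians ran from 6.94 to 7.01, and precision is limited by the number of arrays. Of 35557 probesets, 21789 carry 1 symbol in the array's annotation, 1621 several and 12147 none, and gene IDs matched to RefSeq changed 0 symbols.

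Groups came from the sample labels. The 6 comparisons used limma 3.58.1 in R 4.3.3 (lmFit and eBayes, 4 group means, all 10 arrays), adjusted by Benjamini-Hochberg over all probesets at 0.05. Folds are ratios of geometric means. The procedure was run on simulated data with the same shifts in both ALL groups, and with the lone array given the spread of the replicated groups. No interaction and no difference between the ALL groups was simulated, so recovery of such effects was not tested. The genes and lists were chosen with earlier results of these data known. Values of every array are given for genes called in any comparison and for role examples, and other pathway genes are named by the largest called differences, up to 4 a list. Samd9l, B2m, Ddx58 and Irgm1 were chosen after their values were seen. Promoters came from RefSeq. Alternatives were limma with trend and robust options, array weights, fewer groups, other scaling, no dim probesets, all probesets of a gene, a replicate block and each replicate left out.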

Additional observations from a re-analysis of the deposited data

Results flagged for a closer look

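For 7 genes the effect of ALL cells differed between nilotinib and DMSO by the limma interaction term (adjusted p below 0.05), as the log2 effect under nilotinib minus that under DMSO. The values were -1.33 for Psmb8, -1.20 for Psmb9, -1.14 for Parp14, -1.04 for Dtx3l, -0.84 for Irf1, -0.64 for Tap1 and -0.57 for Cmpk2. Each rests on the 1 MEFs + ALL + DMSO array, on which 23 of 26 B-lineage and leukocyte markers were called higher. Over 15 alternatives Irf1 lost its call in 8 and Dtx3l in 5.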

How the results depend on the processing

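In the 3 comparisons of replicated groups the count of genes called was 0 under every alternative that was run. Leaving out 1 array at a time, the median log2 difference ran from 0.0318 to 0.1814 in MEFs + ALL + nilotinib over MEFs + DMSO (lowest when MEFs + DMSO replicate 3 was left out, highest when MEFs + ALL + nilotinib replicate 2 was), from -0.0024 to 0.1094 in MEFs + ALL + nilotinib over MEFs + nilotinib, and from 0.1547 to 0.3216 in the lone array over MEFs + DMSO. There the count ran from 8 to 10. Gbp3 lost its call without MEFs + DMSO replicate 3 (limma adjusted p = 0.0509). In MEFs + ALL + nilotinib over MEFs + ALL + DMSO, Irf1 lost its call under quantile normalization, with the mean of its probesets, and without MEFs + ALL + nilotinib replicate 1 or 3 (largest adjusted p 0.298). In the interaction, Irf1 lost its call in 8 and Dtx3l in 5 of 15 alternatives. The causes were not tested. Cmpk2 drops out where dim probesets are removed. Calls gained under some alternatives were those of Herc6, Dtx3l, Parp9 and Ddx58. Ddx58 gained its calls only when MEFs + nilotinib replicate 1 was left out.

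Correlations of same-numbered deviations ran from -0.293 to 0.241, and those of different-numbered deviations from -0.259 to 0.389. With 3 dishes a group, these overlapping ranges cannot show whether the replicate numbers pair the dishes. With the replicate block the count of calls was 0 in each of the 3 comparisons it could be fitted to, and the median in MEFs + ALL + nilotinib over MEFs + DMSO was 0.0991. For the lone array, fits on only the compared groups were not run.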
